A study of Mus musculus with 2 samples.

Results

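The 6 genes of the platelet-derived growth factor (PDGF) system were taken from an array comparison of wild-type mouse tooth and wild-type mouse skin. They comprised the 4 ligand genes Pdgfa, Pdgfb, Pdgfc and Pdgfd and the 2 receptor genes Pdgfra and Pdgfrb, and were chosen by the gene name that the array's design gives each probe. All 6 were found, on 8 probes, among 24323 named genes. The labels place both tissues at P0, the day of birth, while the study's methods describe P1, and the labels are followed here. Each tissue was measured on 1 array with no replicate, so every difference below compares 2 arrays and no test between tissues was possible. The study describes the tooth samples as germs of the incisor holding both epithelium and mesenchyme, and the skin as containing its hair follicles. How many animals gave the RNA and from which body site the skin came are not given in the sources used here.

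PDGF ligands are secreted as dimers of disulphide-linked chains and act on a pair of receptor tyrosine kinases at the cell surface. The A and C chains signal through the alpha receptor, the D chain signals mainly through the beta receptor, and the B chain can bind both. In skin and in developing teeth the A chain is known as a signal from epithelium to the underlying mesenchyme, whose cells carry the alpha receptor. In blood vessels the B chain comes from endothelial cells and recruits pericytes and smooth muscle cells, which carry the beta receptor.

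The values below rest on the stretch of each transcript that its probe reads, and for Pdgfa and Pdgfb on a pair of probes each, so the target sequences are shown first. Positions are in mouse build mm9 as the arrays' own annotation gives them, and each probe is 60 bases long, of which the first 30 are printed 5′ to 3′. The Pdgfa probes lie on the minus strand at chr5:139452934-139452993 and chr5:139452925-139452984 and share 51 bases. The Pdgfb probes lie on the minus strand at chr15:79826376-79826435 and chr15:79827438-79827497. The probes of Pdgfc at chr3:81017572-81017631, Pdgfd at chr9:6376926-6376985 and Pdgfra at chr5:75593888-75593947 lie on the plus strand. Whether each lies in a coding exon or in an untranslated region was not analysed here. Capitals mark the bases printed for the Pdgfa pair that belong to their shared stretch.
Pdgfa, brighter probe: actgtagcaCTCAGAGAGACAGTGAGAAAG
Pdgfa, other probe: CTCAGAGAGACAGTGAGAAAGCTTCCTTGT
Pdgfb, brighter probe: gttccttctgcttccttcagtttgtaaagt
Pdgfb, other probe: actccaggctgcaggcttctcttgactcca
Pdgfc: aaatatggagccattgctaacctacccctt
Pdgfd: gaaggggcaaagctaagaatatggctcttg
Pdgfra: tgtatatatctgttgctatgtagacttgga
The Pdgfa probes are offset by 9 bases and so read nearly the same target. The Pdgfb probes do not overlap and start 1062 bases apart, both in the genome and in the transcript position that the design gives.

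The labelled tissues were checked against genes that define them. All 6 ameloblast genes, which build enamel, were higher in tooth, and 5 of them were not well above background in skin, among them Amelx, Ambn and Enam. All 5 odontoblast genes, which build dentine, were higher in tooth as well, with Dspp at least 3087-fold higher. All 5 epidermal differentiation genes were higher in skin, led by Flg at 7614-fold, Krt1 at 979-fold and Lor at 554-fold. Each array held 62976 spots, and 17409 named genes passed the detection call, a signal well above background, in tooth or skin or both. Levels are log2 signals relative to the 75th percentile of their own array, which stood at 428 for tooth and 276 for skin, and a difference is the skin level minus the tooth level, so that a negative value means higher in tooth. Levels of different probes are not compared, because probes differ in how well they bind. A summed level adds the levels of a list's genes off the log2 scale, and so is set mainly by the brightest probes. Since these are bulk tissues, fewer cells of a type and less RNA per cell cannot be told apart.

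To investigate whether ligands and receptors were distributed alike between the tissues, all 6 members were read on both arrays. Both receptors were higher in tooth, by 5.39-fold for Pdgfra and 6.11-fold for Pdgfrb. The ligand Pdgfd was well above background in tooth alone, Pdgfb was 2.40-fold higher in skin, and Pdgfa and Pdgfc differed by less than 2-fold. Thus 3 of 6 members were at least 2-fold higher in tooth, where the share over all 17409 measured genes was 15.5%, and 1 of 6 was at least 2-fold higher in skin, where that share was 14.2%. With normexp, a background model that adds an offset to dim signals, 2 members were at least 2-fold higher in tooth, beside 9.60% of all genes. The median difference of the members was -1.41, or -1.12 with Pdgfd at its bound, beside -0.044 over all measured genes with quartiles of -0.58 and 0.47. The members' median was -0.59 with normexp and -2.03 when the arrays were scaled by their spike-in controls. The median over all measured genes was then 0.034 and -0.67. The move under spike-in scaling is thus a constant shared by all genes. With 6 members these counts are a description of 2 arrays.

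**Figure D1:**
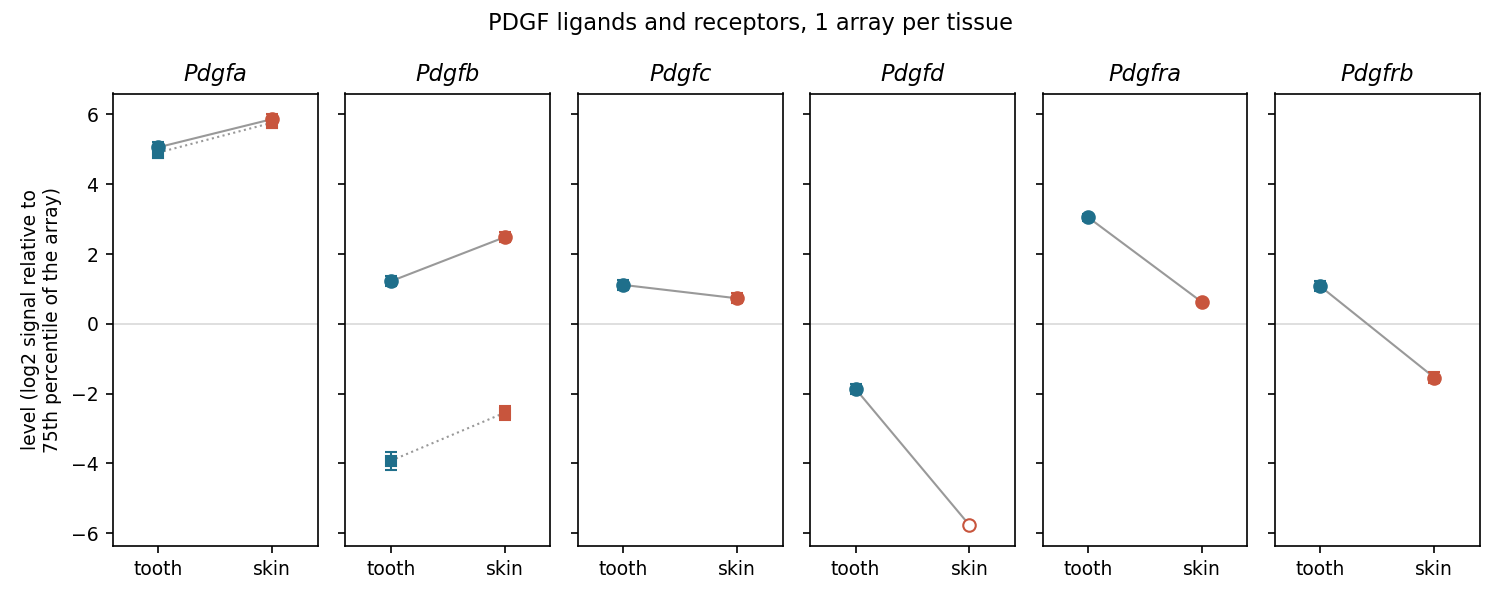
Level of each PDGF gene in tooth and skin, as log2 signal relative to the array's 75th percentile; circles are the brighter probe of a gene, squares the other probe, the open circle a signal not above background, and bars (mostly hidden by the symbols) the software's error or, for Pdgfra, the SD over 10 spots. Within a panel the lines of Pdgfra, Pdgfrb and Pdgfd fall from tooth to skin and those of Pdgfa and Pdgfb rise; levels of different panels are not comparable.

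The scatter of the measurement itself was estimated from probes printed repeatedly, of which 8 or more spots on an array passed the detection call. Over 288 such probes in tooth and 273 in skin the median SD between spots was 0.076 and 0.086 on the log2 scale, which gives 0.12 for a difference between the arrays. Probes of the same gene disagreed by more, with a median gap of 0.26 and a 90th percentile of 0.94 over 3241 genes with 2 measured probes. Neither figure holds the spread between animals, which these data do not measure. None of the members' 17 spots per array was saturated or carried an outlier call.

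Among the ligands, Pdgfa had a processed signal of 14285 in tooth and 16122 in skin on its brighter probe. The second probe gave 12852 and 15010. Both tissues were therefore bright on both probes, and skin was the higher on each. The level was 5.06 in tooth against 5.87 in skin, and so differed by 0.81 or 1.75-fold with a software error of 0.20. The second probe gave 0.86, but because it shares most of its target with the first it is no independent measurement. Of all genes measured on both arrays, 14.4% lay further toward skin. Pdgfa is made largely by epithelium, and the epithelial markers were also higher in skin, 5 of 5, with a median difference of 0.66. Krt14 led them at 1.19, Krt5 followed at 0.94 and Epcam at 0.66, and their summed level was 551 in tooth and 1061 in skin. None of the 5 was below background in either tissue, and their part in the Pdgfa difference was not tested.

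Pdgfb, the ligand that endothelial cells present to mural cells, had a signal of 997 in tooth and 1544 in skin. The levels were 1.22 and 2.48, which made skin higher by 1.26 or 2.40-fold with a software error of 0.20. The second probe was far dimmer, at 28.2 in tooth and 47.3 in skin, yet was well above background on both arrays. It gave a difference of 1.38 with an error of 0.32, so that targets 1062 bases apart differed by 0.11 in what they showed. Pdgfb was the only member at least 2-fold higher in skin, and it fell below 2-fold, to 0.64, with spike-in scaling. The endothelial markers lay the other way: 5 of 6 were higher in tooth, with a median of -2.15, or -1.84 with Tek at its bound, and a summed level of 7.97 in tooth against 2.77 in skin. Emcn was at -3.10, Cdh5 at -2.70 and Tie1 at -2.22, while Tek was not well above background in skin. Pecam1 was the exception, higher in skin at 0.50. With spike-in scaling all 6 were higher in tooth. Platelet genes gave no common direction, with a summed level over 4 genes of 3.11 in tooth and 5.10 in skin. Most of either sum came from Pf4, which was at 0.78. Of the other platelet genes, Itga2b, not well above background in tooth, was 3.02-fold higher in skin by its measured level. Ppbp was at least 1.70-fold higher in tooth. Gp9 passed the detection call in tooth alone, but no direction follows, since its tooth level lay at the lowest level called in skin. The part of either cell type in the Pdgfb difference was not tested.

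Pdgfc, a ligand secreted in a latent form, had a signal of 927 in tooth and 459 in skin. After scaling, the levels of 1.12 and 0.73 differed by -0.38, or 1.30-fold toward tooth, with a software error of 0.20. That difference was about as large as the gaps commonly seen between probes of a gene, and 29.5% of genes measured on both arrays lay further toward tooth. Under spike-in scaling it came to -1.01 and so just passed 2-fold. Pdgfd, the other latent ligand, had a signal of 117 in tooth. In skin its raw spot mean was 48.4 over a local background of 31.0, compared with 154 over 32.5 in tooth, and the software replaced the skin value by a surrogate of 5.07. The skin level is therefore only a limit, and Pdgfd was at least 3.64-fold higher in tooth. With normexp this bound shrank to -0.52 on the log2 scale, which is less than 2-fold.

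**Figure D2:**
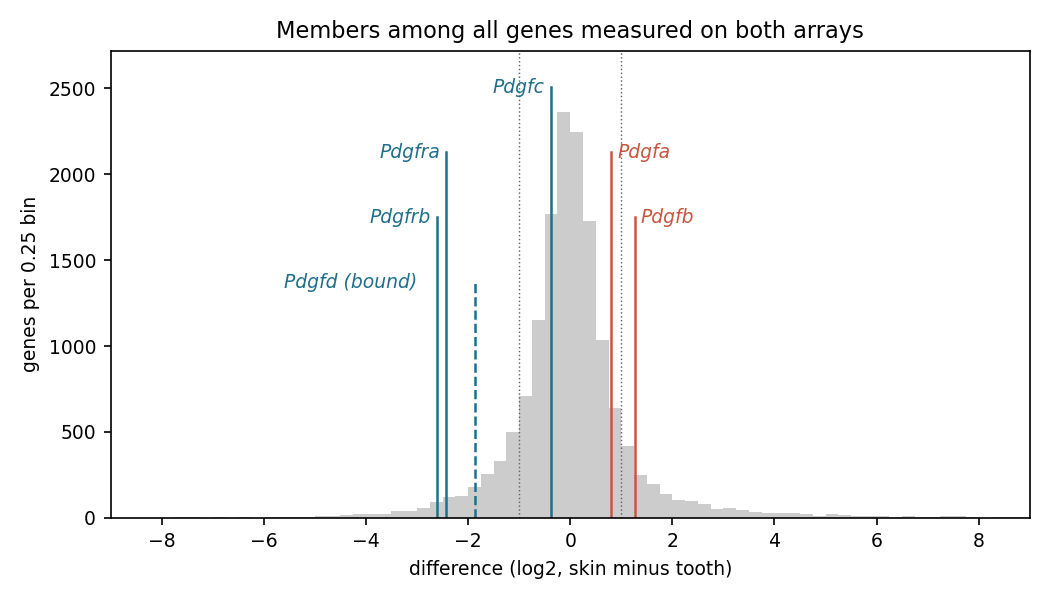
Differences in log2 between skin and tooth for the 15271 named genes measured on both arrays (grey bars, genes per bin), with vertical lines at the PDGF genes and dotted lines at 2-fold. Pdgfra at -2.43 and Pdgfrb at -2.61 lie in the left tail, Pdgfa and Pdgfb to the right of the centre, and the dashed line is the bound of -1.86 for Pdgfd, which is not among the grey bars.

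Among the receptors, Pdgfra was the best measured member, since its probe was printed 10 times on each array. In tooth the 10 spots had signals from 3315 to 4097 with a median of 3478. In skin they ran from 373 to 488 with a median of 429. These signals are unscaled. The spots of the tissues did not overlap, here or on the level scale. How many other repeated probes separate in this way was not counted, so the separation describes this probe alone. On the level scale the tooth spots ran from 2.95 to 3.26 around 3.06 ± 0.11 (SD, 10 spots) and the skin spots from 0.44 to 0.82 around 0.63 ± 0.10 (SD, 10 spots). The difference was -2.43 with a standard error over spots of 0.046, and 2.60% of genes measured on both arrays lay further toward tooth. Repeated spots share a single labelled RNA, so this error covers the array alone.

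**Figure D3:**
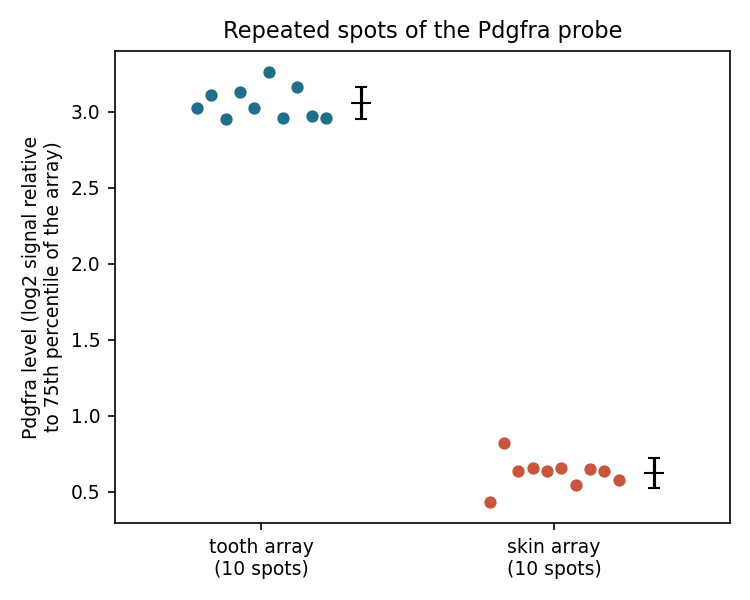
Level of Pdgfra, as log2 signal relative to the array's 75th percentile, at each of its 10 spots per array; the black bar is the mean with the SD over spots. All tooth spots lie between 2.95 and 3.26 and all skin spots between 0.44 and 0.82.

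Pdgfra marks fibroblasts and mesenchyme, and fibroblast markers were read beside it. Of 6, 4 were higher in tooth, the median was -1.71, and the summed level was 1478 in tooth and 323 in skin. Col1a1, the main collagen chain of bone, dentine and dermis, was at -3.17 and Lum, a collagen-binding proteoglycan, at -2.97. Dpt, a protein of the dermal matrix, ran the other way and was at least 18.7-fold higher in skin, where tooth was not above background. The mesenchymal genes of the developing tooth were higher in tooth in 4 of 5 cases, with Lhx8 at least 49.6-fold, Barx1 at least 16.9-fold and Pax9 at least 7.83-fold higher. The part of mesenchymal cells in the Pdgfra difference was not tested. Adipocyte and muscle genes were higher in skin in every case measured. Of the adipocyte genes 6 of 6 were higher, with Cebpa at 25.4-fold and Fabp4 at 16.7-fold. Adipoq, not well above background in tooth, was 39.5-fold higher by its measured level there. Of the muscle genes 4 of 4 were higher, with Tnnt3 at 14.1-fold, Ckm at 10.4-fold and Acta1 at 6.98-fold. All 4 genes listed for the dermal papilla, the mesenchyme at the base of the hair follicle, were higher in skin too. The study also uses Sox2 to mark stem cells of the dental epithelium, so that gene is not exclusive to the papilla. Corin was at least 10.8-fold, Sox18 2.41-fold and Sox2 1.56-fold higher. Sox2 was dim, at -3.87 in tooth and -3.23 in skin, where the lowest called levels were -4.52 and -3.73. Its difference of 0.64 shrank to 0.015 under spike-in scaling, and 1 of these 4 genes then turned toward tooth.

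Pdgfrb, the receptor of pericytes and smooth muscle, was read by 1 probe at chr18:61244606-61244665 on the plus strand. Its signal was 901 in tooth and 95.1 in skin, where it remained well above background. The levels were 1.07 and -1.54, and the difference of -2.61 had a software error of 0.22. Of all genes measured on both arrays, 2.13% lay further toward tooth. The difference was -1.995 with normexp and -3.23 with spike-in scaling. The values of all 9 alternatives span this range, at least 2-fold toward tooth. With 1 probe, called on both arrays and without an outlier call, probe averaging, kept outliers and the lenient call could hardly move it.

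The mural cell markers, pericyte and smooth muscle genes, were divided. Of 9, 5 were higher in tooth, with a median of -1.72 and a summed level of 104 in tooth and 65.6 in skin. Rgs5, the pericyte gene with the largest difference of the list, was at -4.12 and Acta2, smooth muscle actin, at -2.74. Des, an intermediate filament protein that skeletal muscle also makes, was higher in skin at 2.89. The macrophage genes, included as another cell type that surrounds vessels, were higher in tooth in 2 of 4 cases with a median of 0.17 that turned to -0.45 under spike-in scaling, Cd68 being at -1.79, Adgre1 at 0.52 and Mrc1 at 0.42. The part of mural cells in the Pdgfrb difference was not tested.

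To compare members with each other, differences were subtracted, which removes any constant shift between the arrays. The receptors differed from each other by 0.18, less than the software error of 0.22 on the Pdgfrb difference alone, with Pdgfrb the further toward tooth. Under normexp their order turned, with a value of -0.34. The signal of Pdgfb relative to Pdgfrb was 14.7-fold higher in skin than in tooth, and that of Pdgfb relative to Pdgfra 12.9-fold higher. The signal of Pdgfa relative to its receptor Pdgfra was 9.42-fold higher in skin, and that of Pdgfc relative to Pdgfra 4.13-fold higher. Over the main setting and 9 alternatives, the contrast of Pdgfra with Pdgfa lay between -3.26 and -3.06 and that of Pdgfrb with Pdgfb between -3.93 and -3.11. Only quantile normalization, normexp and the averaging of probes could move these contrasts. The other alternatives shift all differences alike or leave these probes unchanged. Ligands therefore stood higher relative to receptors in skin than in tooth for each of these pairs, on RNA level and as ratios of unlike probes within an array. Pdgfd and Pdgfrb cannot be compared in this way, because the skin value of Pdgfd is a limit.

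**Figure D4:**
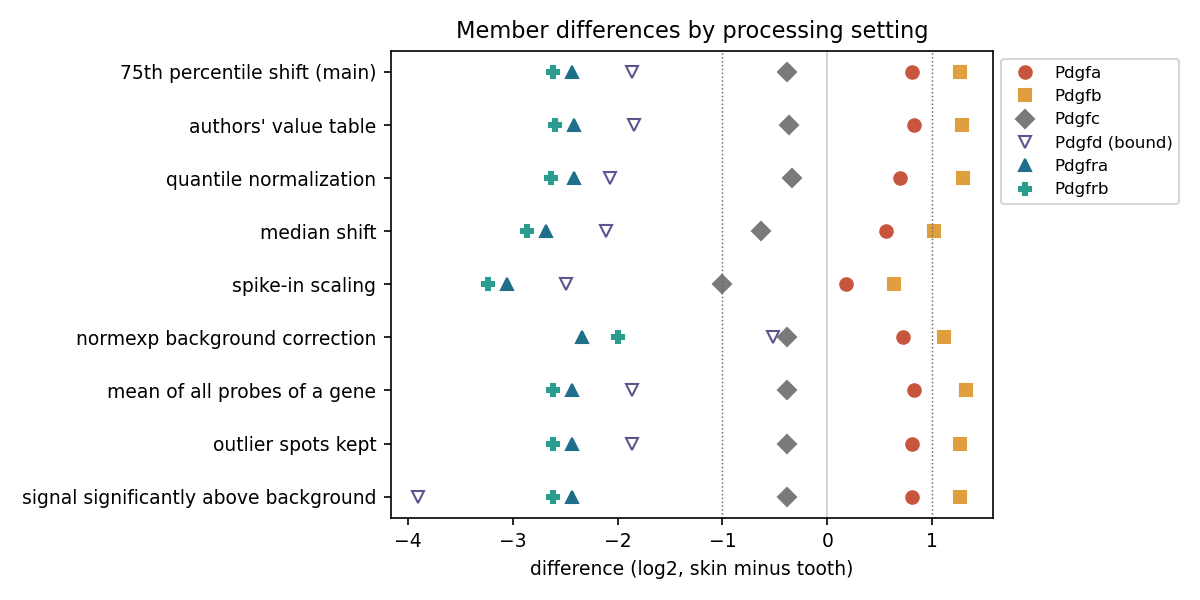
Differences in log2 between skin and tooth of each PDGF gene under the main setting and 8 of the alternatives, with dotted lines at 2-fold; open triangles are the bound for Pdgfd. Pdgfra and Pdgfrb lie beyond 2-fold toward tooth in every row, while Pdgfa, Pdgfb and Pdgfc move together toward tooth under spike-in scaling and the Pdgfd bound is smallest, at -0.52, under normexp.

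The genes around the ligands were examined next. PDGF-C and PDGF-D need a protease to be released from their latent form, and PDGF-A and PDGF-B are cut from precursors by furin-like convertases. All 6 protease genes listed were measured in both tissues, 1 was at least 2-fold higher in each, and the median was 0.55. Over all measured genes 15.5% were at least 2-fold higher in tooth and 14.2% in skin. Pcsk6, a furin-like convertase, was at 1.50 in skin and fell to 0.88, below 2-fold, with spike-in scaling. Pcsk5, a related convertase, was at -2.75, but its other probe gave 0.69 and was not well above background on both arrays. The proteases Plat, Plau and St14, which can activate the latent ligands, lay at 0.27, 0.82 and 0.95. Of the 6 extracellular partners, 3 were at least 2-fold higher in tooth and 0 in skin, again beside 15.5% and 14.2% of all genes, with a median of -1.05. Nrp2, the only partner higher in skin, was at 0.48. Its other probe, well above background in both tissues, gave 1.17. Pdgfrl, a secreted receptor-like protein, was at -2.01, and Sparc, a matrix protein that binds the B chain, at -1.50 with -2.09 on a second probe. Lrp1, an endocytic co-receptor of the beta receptor, was at -1.38, while its other probes gave 0.38 and -2.40 and were not well above background on both arrays.

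The 21 receptor effectors measured in both tissues had a median of -0.039. Of these, 4 were at least 2-fold higher in skin, namely Pik3cb, a catalytic subunit of phosphoinositide 3-kinase, at 1.57, the transcription factors Stat5a at 1.03 and Stat3 at 1.01, and the scaffold Slc9a3r1 at 1.03. The 2 at least 2-fold higher in tooth were Pik3r1, a regulatory subunit of the same kinase, at -1.10 and the Src-family kinase Fyn at -1.06. Over all measured genes 14.2% passed 2-fold toward skin and 15.5% toward tooth, so these counts are near the background. Most of the 6 lie close to the 2-fold line. With spike-in scaling none of the list was at least 2-fold higher in skin and 6 were in tooth. The shares over all genes were then 9.04% in skin and 32.4% in tooth, so these counts too are no more than the background. Of the 8 attenuators, the ubiquitin ligases and phosphatases that end receptor signalling, 0 were at least 2-fold apart in either direction and the median was -0.099.

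The early response genes, which cells switch on within minutes of PDGF and of many other stimuli, lay toward skin. All 12 were measured, 12 of 12 were higher in skin, 7 were at least 2-fold higher, and the median was 1.39. The share of all measured genes at least 2-fold higher in skin was 14.2%. The smallest differences were those of Myc at 0.17 and Srf at 0.18, and Srf gave -0.071 on its other probe. Egr1, a zinc finger transcription factor, was at 2.80. Fosb at 2.22, Fos at 2.20 and Junb at 1.89 are subunits of the AP-1 transcription factor, and Fosl1, another, was at least 3.50-fold higher in skin and not well above background in tooth. With spike-in scaling 9 of 12 were higher in skin and 6 were at least 2-fold higher, beside 9.04% of all genes. These levels are RNA levels in whole tissue, and whether PDGF acted on any of these genes was not tested.

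Relatives of the PDGF system, the VEGF ligands and the receptors closest to the PDGF receptors in structure, were read for comparison. Of 14 genes 13 were measured, Flt4 being below the detection call in both tissues, and the median was -0.43. Flt1, a VEGF receptor, was at -2.57, a size similar to those of the PDGF receptors, with -2.50 on another probe. Vegfa was at -1.84, with -0.76 on its other probe. Figf, the gene for VEGF-D, had a level of -2.21 in tooth and 0.89 in skin, 8.58-fold higher in skin, and Flt3, a receptor of blood progenitors, at 1.12 close to the detection limit and at 0.50 with spike-in scaling. The VEGF receptor Kdr gave 0.43 on its brighter probe, -0.19 there with spike-in scaling, and -2.19 on the other. Of the receptors nearest in structure to the PDGF receptors, Kit at -0.71 and Csf1r at -0.43 lay on the tooth side by less than 2-fold. Flt3, of the same group, lay on the skin side at 1.12.

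**Figure D5:**
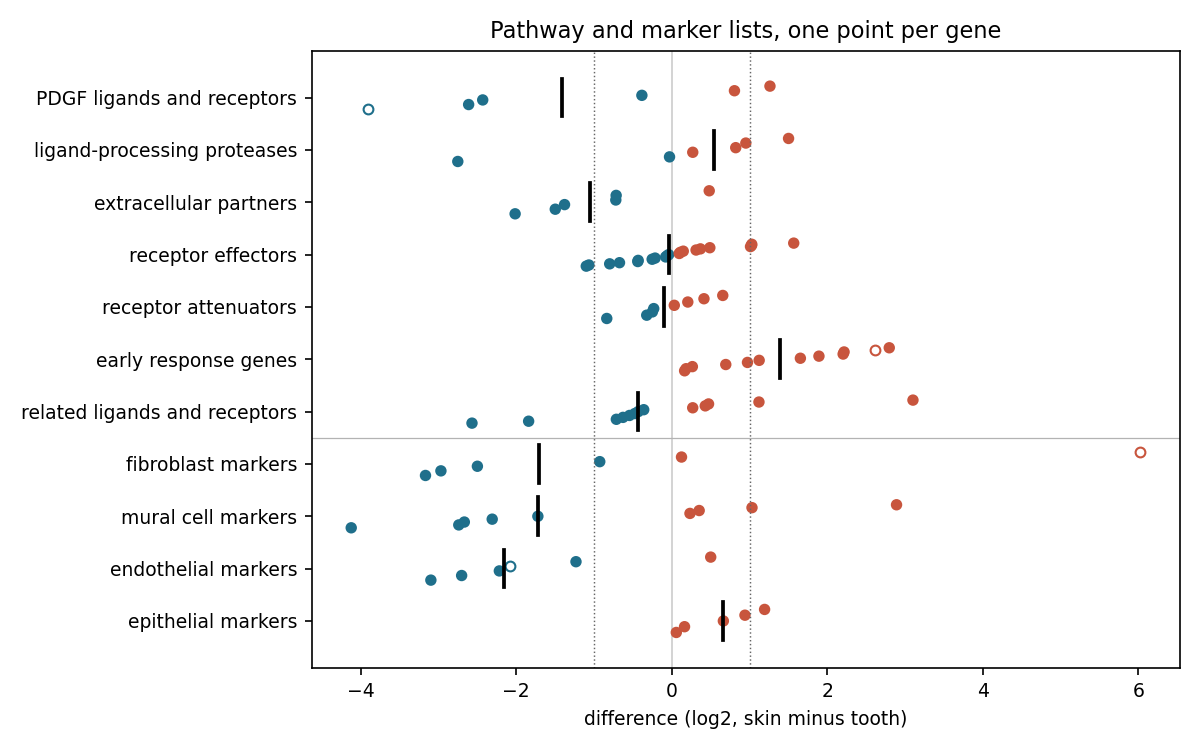
Differences in log2 between skin and tooth for the PDGF genes, 6 pathway lists and 4 marker lists, with a point per gene, a black bar at the list's median and dotted lines at 2-fold; open points are genes well above background on 1 array only, plotted at their measured value and not at their bound. The early response genes all lie to the right of 0, the extracellular partners mostly to the left, and the effectors and attenuators around 0.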

How the data were processed

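Total RNA of tooth and skin of wild-type mice was labelled with Cy3 from 50 ng and hybridised to 1 Agilent array per tissue, on the same slide. Per the file headers the authors extracted intensity values with Agilent Feature Extraction 10.7.3.1, which subtracts background, removes spatial trends and replaces dim signals by surrogates. The deposited series table holds a ratio, the processed signal over a factor per array near its 75th percentile, and it was used as an alternative. The study's methods name GeneSpring, a filter on low signals and a percentile shift.

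Here log2 processed signals were averaged over the spots of a probe without outlier calls, and the 75th percentile over the non-control probes of each array was subtracted. A probe was measured where over 50% of its spots were well above background, and a gene was represented by its probe of highest average level. A probe well above background on 1 array only gave a bound against the lowest called level of the other. Where its own uncalled level there was higher, that level was used instead. At least 2-fold was set as the size to count, from measured differences. Gene names came from the arrays and, by accession, from RefSeq symbols of GRCm38.p6. limma 3.58.1 gave normexp with an offset of 50, and Python 3.11.15 with pandas 2.3.3 did the rest. Scripts were tested on simulated data. Members, pathway lists and marker lists were chosen with earlier results of these data known. Named were all members, pathway genes at least 2-fold apart (at most 5 a direction and list) and at most 3 marker genes a list. Also named, chosen after their values were seen, were the 3 activating proteases, Tek, Pecam1, Pf4, Cdh1, Trp63, Nrp2, Myc, Srf, Kdr, Kit and Csf1r. Tested alternatives were 3 scalings, normexp, the deposited ratios, 2 ways to average probes, kept outliers, a lenient detection call and, for the shares over all genes, no filter on dim probes.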

Additional observations from a re-analysis of the deposited data

How the results depend on the processing

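No member changed direction. Of the list medians, those of proteases (0.55) and effectors (-0.039) changed sign as given below, as did the macrophage median of 0.17, at -0.077 with the median shift and -0.45 with spike-in scaling, and the platelet median of -0.62 (0.39 with its bounds), at 0.32 with normexp. The median shift and spike-in scaling each move every difference by a constant: against the 75th percentile, the median of all genes shifted by -0.25 with a median shift and by -0.62 with spike-in scaling, which rests on 8 control probes. With the median shift, Pdgfa was at 0.56, Pdgfb at 1.01, Pdgfc at -0.63, the Pdgfd bound at -2.11, Pdgfra at -2.68 and Pdgfrb at -2.86. The list medians were then 1.14 for early response genes, -1.30 for extracellular partners, 0.30 for proteases, -0.29 for effectors, -0.35 for attenuators and -0.68 for relatives. With spike-in scaling, Pdgfa was at 0.18, Pdgfb at 0.64, Pdgfc at -1.01, the Pdgfd bound at -2.49, Pdgfra at -3.05 and Pdgfrb at -3.23. The list medians were then 0.77, -1.67, -0.076, -0.66, -0.72 and -1.05 in the same order, 0 members passed 2-fold toward skin, and the shares of all genes at least 2-fold higher were 9.04% in skin and 32.4% in tooth. With normexp, Pdgfb was at 1.11, the Pdgfd bound at -0.52, Pdgfrb at -1.995, the early response median at 1.02, the endothelial median at -1.31 and the adipocyte median at 2.47 (from 3.84), 2 members were at least 2-fold higher in tooth, and 9.60% of genes were at least 2-fold higher in tooth. The Pdgfd bound was -2.07 with quantile normalization and -3.90 with the lenient detection call. Averaging all probes of a gene gave -0.93 for extracellular partners and 0.097 for effectors, and averaging measured probes -1.26 and 0.097. The other 108 values of members, pathway list medians and counts moved by less than the measurement scatter of 0.12 or, for counts, by at most 1.5 times. Quantile normalization moved genes in both directions. The cause of these moves was not tested.

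With 1 array per tissue the number of arrays limits the precision, and the spread between animals is unknown. Pdgfd in skin was below the detection call, and the second Pdgfb probe was dim in both tissues. There was no replicate to leave out. No paired analysis was possible because each group holds 1 sample.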
